A study of Mus musculus with 6 samples.

Results

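The BCL2 family sets whether a cell under stress keeps its mitochondria intact. Pro-survival members hold the effectors BAX and BAK in check at the mitochondrial outer membrane, and BH3-only members, which carry little more than the short BH3 segment, bind the pro-survival proteins or activate the effectors. Once BAX or BAK opens the membrane, cytochrome c leaves the mitochondrion and caspases are activated. In macrophages MCL1 and the BCL2A1 proteins are known for keeping cells alive during inflammatory activation, and most of the family is also controlled after transcription, which RNA levels do not show.

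The genes described here are 10 BCL2 family genes of 55536 annotated genes, chosen by name. The 5 pro-survival genes are Mcl1, Bcl2l1, Bcl2, Bcl2a1b and Bcl2a1d. The 5 pro-death genes are the effectors Bax and Bak1 and the BH3-only genes Bid, Bcl2l11 and Bbc3. All 10 passed the filter on low counts. The cells were RAW264.7, an established mouse macrophage-like line that came from a virus-induced tumour, and the labels give its background strain as C57BL/6. The Ctrl group is 3 libraries of total RNA from cells given PBS, a salt buffer, and the Ti group is 3 libraries from cells given Ti (titanium) particles. Such particles are used as a model of the wear debris that joint implants shed. Both groups are the same line, and the labels name no other alteration in either. No label states the particle size, the dose or the length of exposure, or says whether the replicates were separate cultures, so the p-values measure the spread between these libraries, which may be technical.

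The deposited estimated counts per transcript were rescaled by exon length over genomic span and summed per gene, which gave 37686020 to 60242937 counts per library. A pair of scales is used below. CPM values are rescaled counts per 1000000 of the TMM-scaled library total and serve to compare libraries. The per-length level is the deposited value over genomic span, scaled to the same sum over all annotated transcripts in every library, and serves to compare genes. All 10 macrophage markers examined were present in every library, from a per-length level of 4.38 for Itgam in Ti replicate 1 to 5424 for Lyz2 in Ti replicate 3, and none of them passed the test between groups. Of 28 markers of T cells, B cells, fibroblasts, epithelium and endothelium, 27 stayed under a per-length level of 1 in all 6 libraries, and the exception was Lck with 2.12 to 3.44. The libraries numbered 3, 1 in each group, stood apart from the rest for Bid and Bcl2a1d, so values without them are given beside the results they moved most. In bulk RNA of this kind, fewer cells that use a gene and less of its RNA per cell cannot be told apart.

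None of the 10 genes passed an adjusted p of 0.05 between Ti and Ctrl in edgeR's quasi-likelihood test, in DESeq2 or in limma voom. In simulated data edgeR recovered 2.67% of 2-fold and 43.7% of 4-fold changes in genes, so a gene not called may still differ. Across all 15376 genes tested, edgeR called 4 (0.026%), of which 2 (0.013%) were higher and 2 (0.013%) lower in Ti, and 0 with the replicate number as a block. DESeq2 called 292 genes (1.9%). In simulated data 41.2% of the DESeq2 calls of genes were false, against 8.55% of those of edgeR. At an unadjusted p under 0.05 edgeR had 2 of the 10 genes, Bcl2a1b and Mcl1, both pro-survival and both with higher values in Ti. Without both libraries numbered 3 their unadjusted p were 0.0683 and 0.0850. Among all tested genes 6.76% lay under that unadjusted p, 3.42% on the higher and 3.34% on the lower side. The same pair were the 2 of 10 whose Ti libraries all lay above all Ctrl libraries in CPM. That kind of separation, in either direction, was present in 13.3% of all tested genes, in 6.63% with Ti higher and in 6.71% with Ti lower. Of the 5 pro-survival genes 4 had a log2 fold change above 0 (median 0.19), as did 2 of the 5 pro-death genes (median -0.067), against 50.9% of all tested genes (median 0.0053). With so few genes on each side these counts are a description.

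**Figure D1:**
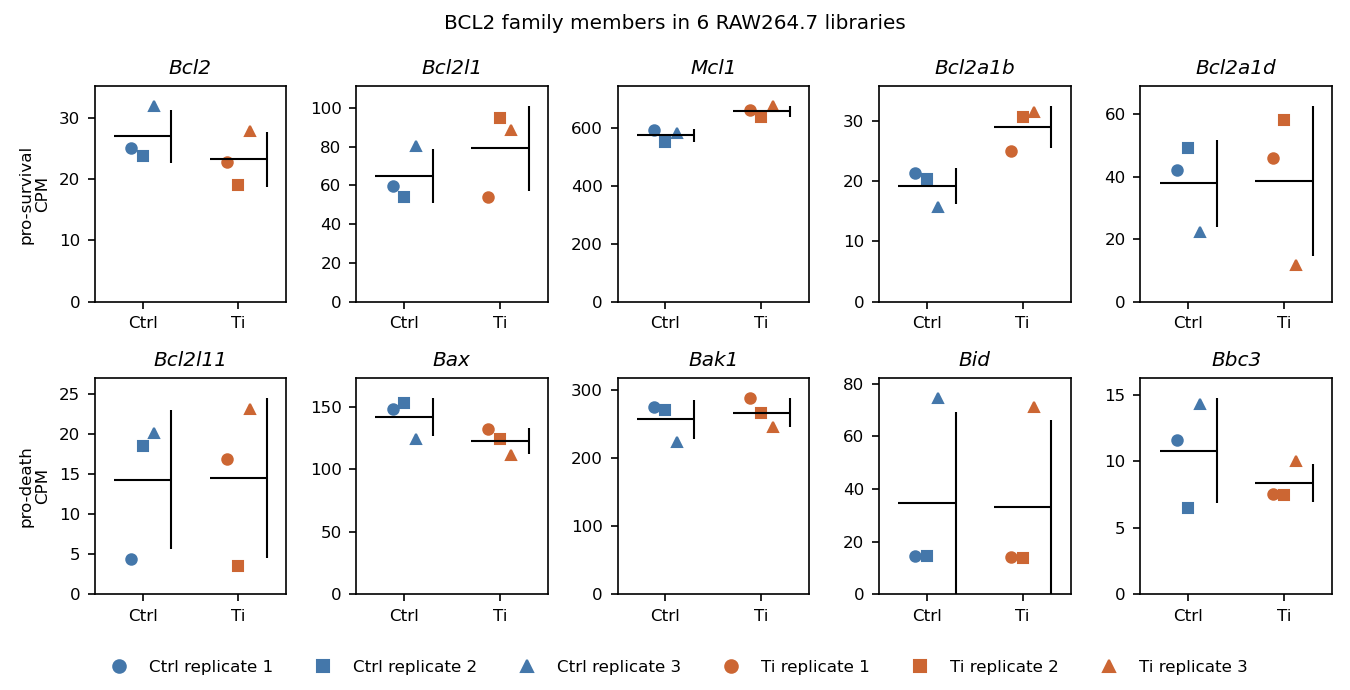
CPM (vertical axes, each from 0) of the 5 pro-survival genes (upper row) and the 5 pro-death genes (lower row) in 3 Ctrl and 3 Ti libraries of RAW264.7 cells, with the symbol giving the replicate number. Horizontal lines are group means and vertical lines 1 SD either side, stopped at 0. The Ti points lie above the Ctrl points for Mcl1 (637 to 675 against 549 to 593) and Bcl2a1b (24.98 to 31.4 against 15.7 to 21.3), and in Bid both libraries numbered 3 stand far above the others.

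Mcl1 (chr3:95658788-95663176, plus strand, GRCm38) encodes a pro-survival protein with a short lifetime, so that its supply depends on continued synthesis. Its CPM was 593, 549 and 581 in Ctrl replicates 1 to 3 and 659.6, 637 and 675 in Ti replicates 1 to 3. In CPM the lowest Ti library was above the highest Ctrl library, and the group means were 574 ± 22.3 and 657 ± 19.1 (SD, n = 3 each). On the per-length scale the groups overlapped, with 212, 196 and 232 in Ctrl and 263, 209 and 263 in Ti. The log2 fold change was 0.19 with an SE of 0.078, a 1.14-fold higher mean in Ti, and the unadjusted edgeR p of 0.0464 became 0.732 after adjustment over all genes. One transcript, Mcl1-201, held all of the annotated signal in the 6 libraries. It joins 3 exons and codes for 331 residues.

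Bcl2l1 (chr2:152780668-152831728, minus strand) encodes BCL-XL, the pro-survival protein that guards against BAX and BAK at the outer membrane. Its CPM was 59.7, 53.8 and 80.3 in Ctrl and 54.2, 94.7 and 88.7 in Ti. The groups overlapped, since Ti replicate 1 lay with the lower Ctrl libraries. Between groups its log2 fold change was 0.29 with an SE of 0.26 (adjusted p = 0.925, edgeR).

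Bcl2 (chr1:106538178-106714274, minus strand), the founding member of the family, gave CPM values of 25.01, 23.8 and 32.0 in Ctrl and 22.7, 19.0 and 27.9 in Ti. Each Ti library was below the Ctrl library of the same number, but the groups overlapped. The log2 fold change was -0.21 with an SE of 0.20 (adjusted p = 0.933, edgeR). Its 2 transcripts with signal differ at the protein's tail end. Bcl2-201, which joins 2 exons and codes for 236 residues, held 57.5% to 71.5% of the per-length level, and the single-exon Bcl2-202, which codes for 199 residues, held the rest.

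Bcl2a1b and Bcl2a1d encode copies of A1, a pro-survival protein induced by NF-kB in haematopoietic cells. The mouse has several near-identical Bcl2a1 genes on chromosome 9, where people have a single one. The first 60 coding bases are shown because they hold 6 of the 12 positions, of 516 coding positions, at which Bcl2a1a, Bcl2a1b and Bcl2a1d are not all alike. Capitals mark those positions. They were read from the GENCODE vM21 transcripts at chr9:88957051-88957110 (plus strand), chr9:89199360-89199419 (plus strand) and chr9:88731660-88731719 (minus strand) of GRCm38.
Bcl2a1a: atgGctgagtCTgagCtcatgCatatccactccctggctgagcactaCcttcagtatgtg
Bcl2a1b: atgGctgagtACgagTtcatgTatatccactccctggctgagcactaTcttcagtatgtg
Bcl2a1d: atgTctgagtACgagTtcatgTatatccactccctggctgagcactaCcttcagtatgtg
The coding sequences of Bcl2a1b and Bcl2a1d differ at 6 bases (98.84% identity) and share an unbroken run of 217 identical bases. Bcl2a1a differs from Bcl2a1b at 11 bases and from Bcl2a1d at 7 bases, and shares a run of 314 identical bases with Bcl2a1d. A read that lies within such a run matches more than one copy, and the sources used here do not say how the authors' counting shared such reads.

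Bcl2a1b (chr9:89199209-89207827, plus strand) had the largest log2 fold change and the smallest p of the 10 genes. Its CPM was 21.3, 20.4 and 15.7 in Ctrl and 24.98, 30.7 and 31.4 in Ti, with means of 19.2 ± 2.99 and 29.0 ± 3.52 (SD, n = 3 each). All Ti libraries lay above all Ctrl libraries. Ti against Ctrl, the log2 fold change was 0.60 with an SE of 0.18, a 1.51-fold higher mean in Ti, and the unadjusted edgeR p of 0.0140 became 0.537 after adjustment. Without both libraries numbered 3 the log2 fold change was 0.42. A further annotated gene on the same strand, Gm29094, shares 401 of the 817 exon bases of Bcl2a1b. Gm29094 was at 0.848 to 1.03 CPM in Ctrl and 1.55 to 2.09 CPM in Ti.

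Bcl2a1d (chr9:88723285-88731914, minus strand) is the near-copy on the other strand. Its CPM was 42.1, 49.1 and 22.4 in Ctrl and 46.1, 58.2 and 11.7 in Ti. Both libraries numbered 3 were the lowest of their group, at 0.491 of the mean of the other pair in Ctrl and at 0.225 in Ti. The log2 fold change between groups was 0.030 with an SE of 0.60 (adjusted p = 0.999, edgeR), and 0.20 without both libraries numbered 3. Bcl2a1a, the weakest of these 3 copies, had 40, 67 and 145 rescaled counts in Ctrl and 209, 20 and 180 in Ti, with a log2 fold change of 0.61 and an SE of 0.89. Summed as 1 gene before the fit, the 3 copies gave a log2 fold change of 0.26 (adjusted p = 0.949, edgeR). The unadjusted p was 0.0140 for Bcl2a1b alone and 0.418 for the sum.

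The promoters of the Bcl2a1 copies have a near-identical stretch. RefSeq promoters (GRCm38.p6, from 250 bases before to 50 after the start site) were found for all 10 genes, 15 promoters in all. The stretch below is shown because every copy carries in it an AP-1-type motif (TGANTCA) and a PU.1-type motif (GAGGAAGT). Both are in capitals and lie close together without overlap. The search allowed any base at N, which is A in each copy. AP-1 is a factor of the activation response, and PU.1 is the master factor of the macrophage lineage. The stretches lie at chr9:88956785-88956838 (plus strand), chr9:89199094-89199147 (plus strand) and chr9:88731932-88731979 (minus strand).
Bcl2a1a: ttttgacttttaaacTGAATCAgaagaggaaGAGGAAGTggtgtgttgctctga
Bcl2a1b: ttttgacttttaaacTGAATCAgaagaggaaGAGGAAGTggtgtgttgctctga
Bcl2a1d: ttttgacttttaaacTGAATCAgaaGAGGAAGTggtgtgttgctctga
The stretches of Bcl2a1a and Bcl2a1b are 54 bases long and that of Bcl2a1d is 48 bases long. Searched on both strands, AP-1-type letters were in 7.81% and PU.1-type letters in 3.2% of all 32851 RefSeq promoters of the same length. The 7.81% holds matches with any base at N, and the share with A there was not counted. Among the other members the PU.1-type letters were found in the Bak1 promoter. An NF-kB consensus, held by 8.46% of promoters, was found in those of Bcl2l1 and Bbc3. The cAMP response letters TGACGTCA, held by 1.79%, were found in 0 of the 10. A match is a run of letters and does not show that a factor binds.

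Bax (chr7:45461697-45466898, minus strand) encodes the effector that moves from the cytosol to the outer membrane. Its CPM was 148, 153 and 124 in Ctrl and 132, 125 and 112 in Ti. Each Ti library was below the Ctrl library of the same number, and the groups overlapped because Ctrl replicate 3 lay below Ti replicates 1 and 2. The log2 fold change was -0.21 with an SE of 0.12 (adjusted p = 0.833, edgeR), the smallest p of the pro-death genes.

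Bak1 (chr17:27019810-27029009, minus strand) encodes the second effector, which sits in the outer membrane at all times. Its CPM was 276, 272 and 224 in Ctrl and 289, 266 and 246 in Ti. The groups overlapped, and the log2 fold change was 0.053 with an SE of 0.12 (adjusted p = 0.981, edgeR). In both groups the library numbered 3 was the lowest, as it was for Bax. Ggnbp1, on the opposite strand, shares 437 of the 2407 exon bases of Bak1 and was at 0.978 to 1.66 CPM.

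Bid (chr6:120891930-120916853, minus strand) encodes the BH3-only protein that is cut by caspase-8 and links death receptors to mitochondria. Its CPM was 14.5, 14.7 and 74.6 in Ctrl and 14.0, 13.8 and 71.3 in Ti. Within each group the library numbered 3 stood 5.11-fold and 5.14-fold above the mean of the other pair, and the groups themselves differed by a log2 fold change of -0.067 with an SE of 0.94 (adjusted p = 0.999, edgeR), and by -0.069 without both libraries numbered 3. Of all 15376 tested genes, 27 (0.176%) were at least 5-fold higher in both libraries numbered 3, against 13 in both numbered 1 and 8 in both numbered 2. The neighbouring family gene Bcl2l13 lies on the opposite strand and shares 628 of the 3550 exon bases of Bid, and the sources do not state whether the counting used strand. Bcl2l13 itself was at 79.5 to 91.0 CPM in all 6 libraries and at its lowest in the library numbered 3 of each group.

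Bcl2l11 (chr2:128126038-128162547, plus strand) encodes BIM, the BH3-only protein that is induced when growth factors are withdrawn. Its CPM was 4.35, 18.5 and 20.1 in Ctrl and 16.8, 3.51 and 23.1 in Ti. Ctrl replicate 1 and Ti replicate 2 were far below the other 4 libraries. The gene's log2 fold change was 0.021 with an SE of 0.80 (adjusted p = 0.9996, edgeR), and -0.16 without both libraries numbered 3. The macrophage marker Csf1r was lowest in the same libraries, with per-length levels of 136 in Ctrl replicate 1 and 44.5 in Ti replicate 2, against 154 to 472 in the others. The 154 was in Ti replicate 3, where Bcl2l11 was highest. Cd68 and Spi1 also had their lowest per-length levels in Ctrl replicate 1 and Ti replicate 2, and the other macrophage markers examined did not. The summed level of all 10 macrophage markers was 5382, 5979 and 6889.9 in Ctrl and 6625, 6218 and 8790.5 in Ti. Most of that sum was Lyz2, at 3480, 3681 and 4002 in Ctrl and 4032, 4244 and 5424 in Ti. The part of these marker differences in the Bcl2l11 values was not tested.

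Bbc3 (chr7:16308393-16318205, plus strand) encodes PUMA, the BH3-only protein that is a target of p53. Its CPM was 11.6, 6.51 and 14.3 in Ctrl and 7.55, 7.47 and 10.003 in Ti. The groups overlapped because Ctrl replicate 2 was the lowest of all libraries. The log2 fold change was -0.37 with an SE of 0.32 (adjusted p = 0.920, edgeR).

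**Figure D2:**
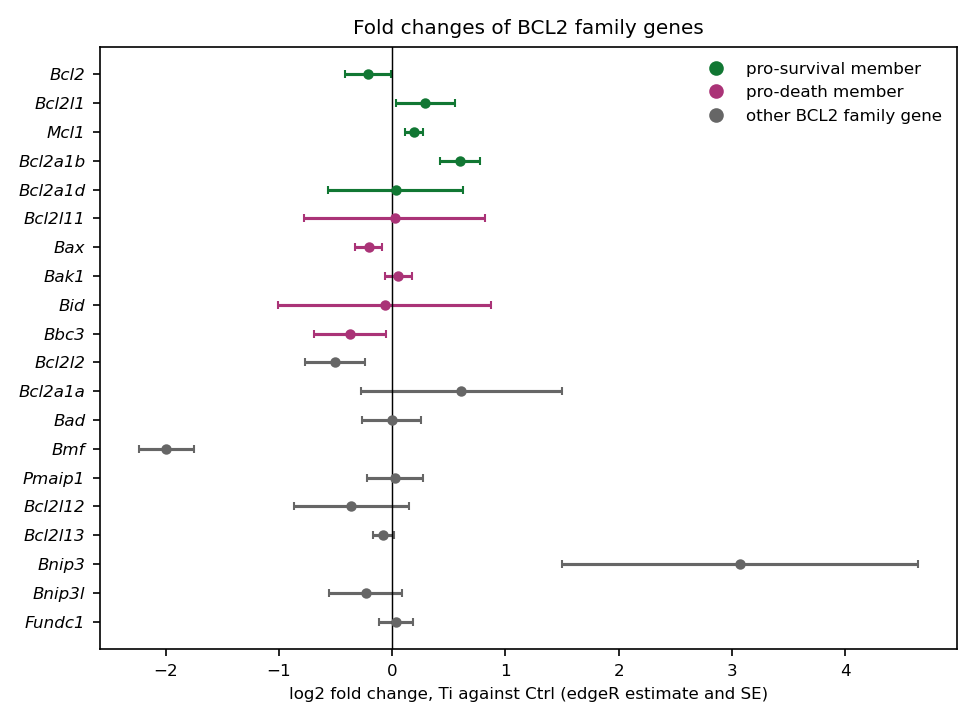
Log2 fold change of Ti against Ctrl (horizontal axis, edgeR estimate with 1 SE either side) for the 10 members and the 10 other BCL2 family genes that were tested, coloured by role. Bcl2a1b (0.60), Bcl2l1 (0.29), Mcl1 (0.19) and Bnip3 (3.07) lie right of 0 by more than their SE, Bmf (-2.0) lies furthest left, and the wide bars of Bid and Bcl2l11 show how much their replicates differed.

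On the per-length scale the 10 genes spanned a wide range. The mean levels over the 6 libraries were 229 for Mcl1, 177 for Bax and 154 for Bak1. They were followed by 55.2 for Bcl2a1d, 44.6 for Bcl2l1, 37.3 for Bcl2a1b and 23.0 for Bid. The lowest were 10.7 for Bbc3, 6.40 for Bcl2l11 and 5.60 for Bcl2. Bak1 and Bcl2a1d were the only neighbours in this order whose ranges over the 6 libraries did not overlap (141.6 to 165 for Bak1, 18.1 to 75.7 for Bcl2a1d). Mcl1 was above Bax in 5 of 6 libraries, Ctrl replicate 2 being the exception, and Bax was above Bak1 in 5 of 6. Bbc3 was above Bcl2l11 in 6 of 6 libraries although their ranges overlapped.

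**Figure D3:**
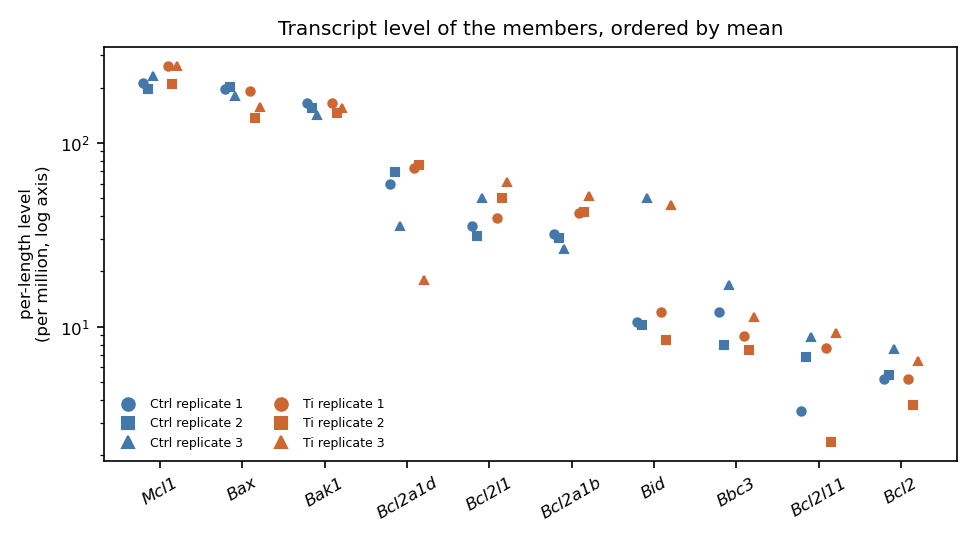
Per-length level (log axis) of the 10 genes in each of the 6 libraries, ordered by their mean, with Ctrl libraries on the left and Ti libraries on the right of each gene. Mcl1, Bax and Bak1 (means 229, 177 and 154) stand above the other 7 genes, with a gap between Bak1 and Bcl2a1d.

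The RNA of each side was dominated by few genes. Mcl1 supplied 54.9% to 66.0% of the summed per-length level of the pro-survival genes, and Bax and Bak1 together supplied 80.8% to 93.9% of that of the pro-death genes. The summed pro-survival level was 344, 333 and 352 in Ctrl and 422, 381 and 399.8 in Ti, so every Ti library was above every Ctrl library. The summed pro-death level was 388, 382 and 397 in Ctrl and 385, 300.1 and 379 in Ti, with Ti replicate 2 far below the rest.

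The pro-survival over pro-death ratio of these sums was 0.887, 0.871 and 0.887 in Ctrl and 1.098, 1.27 and 1.05 in Ti. All Ctrl libraries had more pro-death RNA and all Ti libraries more pro-survival RNA on this scale, which counts every annotated transcript. The pro-death sum thus includes Bak1-204, of the annotation's class of nonsense-mediated decay. Its per-length levels were 128, 86.7 and 73.0 in Ctrl and 0, 112 and 106 in Ti. In each Ctrl library that is more than the gap between the sums. The ratio without Bak1-204 was not run. The log2 ratio averaged -0.18 ± 0.015 in Ctrl and 0.19 ± 0.14 in Ti (SD, n = 3 each), a difference of 0.37. It is a score over chosen genes and is given with no p. Without Mcl1 the difference was 0.41 and the groups still did not overlap. Without Bax it was 0.25, with every gene weighed alike as mean log2(CPM + 1) it was 0.24, and without the rescaling it was 0.24, and on each of these 3 scales the groups overlapped. Its direction was thus the same on every scale run, while the separation of the groups was not. The side of 1 on which the ratios lay also changed. Without the rescaling they were 1.30, 1.19 and 1.18 in Ctrl and 1.34, 1.90 and 1.17 in Ti, above 1 in every library.

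**Figure D4:**
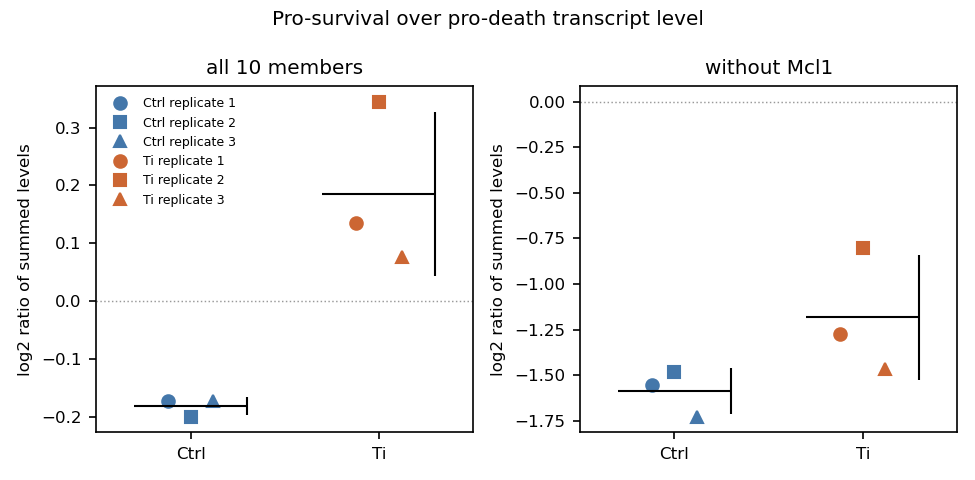
Log2 ratio of the summed per-length level of the pro-survival genes over that of the pro-death genes, for all 10 genes (left) and without Mcl1 (right), in 3 Ctrl and 3 Ti libraries. Horizontal lines are group means and vertical lines 1 SD either side, and the dotted line marks equal sums. On the left the Ctrl libraries lie below 0 and the Ti libraries above it (means -0.18 and 0.19), and the vertical axes of the panels differ.

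Several of these genes make transcripts with different roles, so single transcripts were examined as well. GENCODE vM21 lists 42 transcripts for the 10 genes, of which 7 had no signal in any library and 26 passed the filter. None passed an adjusted p of 0.05 in edgeR, which called 3 of 41599 transcripts tested (0.00721%). In simulated transcripts edgeR recovered 0 of 300 changes of 2-fold and 0 of 300 of 4-fold, so a transcript not called may still differ. At an unadjusted p under 0.05 edgeR had 4 of the 26 (Bcl2l1-203, Bcl2l1-207, Bcl2l1-205 and Bcl2a1b-201), against 4.29% of all transcripts. DESeq2 called 1 of the 26, Bcl2l1-203, and 0.971% of all transcripts. The share of all transcripts whose groups did not overlap was not counted, and for genes it was 13.3%. Transcripts said below to lie apart are therefore a description.

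Bcl2l1 had the transcripts with the smallest p. The full-length form Bcl2l1-202, which codes for the BCL-XL protein of 233 residues, had 48.8, 46.1 and 63.7 CPM in Ctrl and 38.7, 79.5 and 56.8 CPM in Ti, and its groups overlapped. Its log2 fold change was 0.14 with an SE of 0.30. Bcl2l1-203 was singled out after its values were seen. It has a first exon of 727 bases in place of 281, shares the second exon of 676 bases, and its annotated end is incomplete. Its rescaled counts were 63, 39 and 32 in Ctrl and 146, 111 and 196 in Ti, and all Ti libraries were above all Ctrl libraries. Between groups its log2 fold change was 1.87 with an SE of 0.28, the edgeR adjusted p was 0.242 and that of DESeq2 was 9.76e-07. In simulated transcripts 86.4% of the DESeq2 calls were false. Over the alternatives other than DESeq2 its adjusted p ranged from 0.391 to 0.926.

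Bcl2l1-207, a fragment of 2 exons with an incomplete end, had 122, 85 and 105 rescaled counts in Ctrl and 186, 159 and 341 in Ti. The groups did not overlap, and the log2 fold change was 1.21 with an SE of 0.31 (adjusted p = 0.887, edgeR). In Bcl2l1-205 the second exon runs on into the intron, to 1976 bases, and the annotation gives it a coding sequence for 209 residues. It had 52, 28 and 79 rescaled counts in Ctrl and 280, 42 and 746 in Ti. Ti replicates 1 and 3 were high and Ti replicate 2 was among the Ctrl libraries. The log2 fold change was 2.72 with an SE of 0.97 (adjusted p = 0.99998, edgeR), and 1.66 without Ti replicate 3. Bcl2l1-206, with a like run-on second exon of 1741 bases, was lowest in those same Ti libraries, at 0.00 and 0.552 CPM against 3.77 to 7.93 CPM in the other 4. All these forms share bases of the second exon with Bcl2l1-202, so their counts depend on how shared reads were divided. As a share of the per-length level of the gene, Bcl2l1-202 held 63.8% to 69.1% in Ctrl and 52.4%, 68.5% and 48.8% in Ti.

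**Figure D5:**
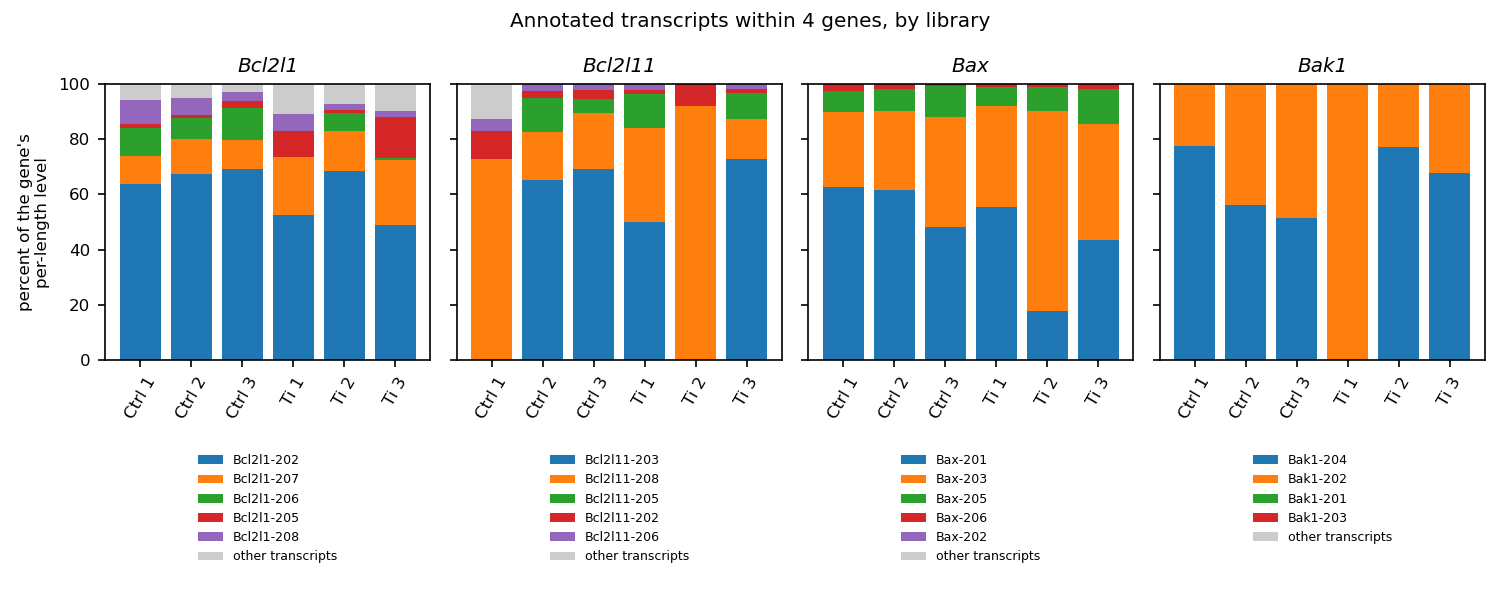
Share of the per-length level of a gene (percent, stacked to 100) that each annotated transcript held in each library, for Bcl2l1, Bcl2l11, Bax and Bak1, with the 5 largest transcripts named and the rest in grey (Bak1 has 4). Bak1-204 is absent from Ti replicate 1, where Bak1-202 holds all, Bcl2l11-203 is at or near 0 in Ctrl replicate 1 and Ti replicate 2, and Bax-201 is lowest in Ti replicate 2 (17.9%).

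For Bak1 the annotation holds a pair of main transcripts, of 2387 and 1958 exon bases, that differ in the extent of their outer exons and by 5 bases at the start of exon 3. They are shown because nearly the whole signal of the gene was divided between them. Capitals mark the 5 bases (AACAG) that Bak1-202 has and Bak1-204 lacks, and the lower-case bases before them end exon 2, with exon 3 beginning at chr17:27022853-27022877 on the minus strand of GRCm38.
Bak1-202: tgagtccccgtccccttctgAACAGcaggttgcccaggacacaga
Bak1-204: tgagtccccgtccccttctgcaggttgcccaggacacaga
Bak1-202 codes for the full protein of 209 residues. Bak1-204, in the annotation's class of nonsense-mediated decay, has a reading frame of 79 residues. The rescaled counts of Bak1-202 were 4579, 5313 and 4988 in Ctrl and 13454, 2642 and 4317 in Ti. Those of Bak1-204 were 13073, 5585 and 4360 in Ctrl and 0, 7303 and 7480 in Ti. Ti replicate 1 had all of its Bak1 signal on the coding form, while the other 5 libraries had 22.3% to 48.4% of it there. Neither transcript passed the test (log2 fold change 0.46 with an SE of 0.59, and -0.38 with an SE of 1.92). Summed over the gene the libraries spanned only 224 to 289 CPM, and the sources do not say how reads shared by these forms were assigned.

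The transcripts of Bcl2l11 code for BIM proteins of different length, all with the BH3 segment in the forms known as BIM-EL, BIM-L and BIM-S. Bcl2l11-203, which codes for 140 residues (BIM-L), had 0.00, 13.4 and 15.3 CPM in Ctrl and 9.96, 0.00 and 17.5 CPM in Ti. Bcl2l11-205, which codes for 196 residues (BIM-EL), had 0.00, 3.61 and 1.56 CPM in Ctrl and 3.53, 0.00 and 3.31 CPM in Ti. Both were listed at or near 0 in the libraries where the gene was low, Ctrl replicate 1 and Ti replicate 2, and present in the other 4. The non-coding Bcl2l11-208 was present in all 6 libraries, at 1.57 to 3.41 CPM. The low values of the gene in those 2 libraries were thus low values of these coding forms.

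Bax-201, the full-length form of 192 residues, had 90.6, 91.8 and 53.4 CPM in Ctrl and 67.7, 19.0 and 43.8 CPM in Ti. Its log2 fold change was -0.85 with an SE of 0.49 (adjusted p = 0.99998, edgeR), -0.49 without Ti replicate 2 and -1.33 without Ti replicate 1. Bax-203, which has 5 exons against 6 in Bax-201, had 49.7, 54.1 and 55.5 CPM in Ctrl and 56.4, 97.8 and 53.2 CPM in Ti. Ti replicate 2 had both the lowest Bax-201 and the highest Bax-203, so the per-length sum for Bax, and with it the summed pro-death level, was lowest there. Bid-201, which codes for the whole protein of 195 residues, carried the high values of the libraries numbered 3, with 70.6 and 68.5 CPM against 12.2 to 13.8 CPM in the other 4. In Bbc3 the retained-intron form Bbc3-203 held 66.1% to 86.8% of the per-length level. Its CPM was 5.19 to 7.39 in Ctrl and 3.98 to 4.87 in Ti, groups that did not overlap, with a log2 fold change of -0.48 and an SE of 0.24 (adjusted p = 0.99998, edgeR).

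Of 17 other BCL2 family genes, 10 were tested and none passed an adjusted p of 0.05 in edgeR, with 4 log2 fold changes above 0 and 6 below (median -0.043). Bmf, a BH3-only gene whose protein is held on the cytoskeleton until it is freed by stress, was the only one of these 10 under an unadjusted p of 0.05, against 6.76% of all tested genes. Its CPM was 13.2, 11.4 and 8.70 in Ctrl and 3.03, 3.05 and 2.27 in Ti. The groups lay well apart, with means of 11.1 ± 2.27 and 2.78 ± 0.446 (SD, n = 3 each). Ti against Ctrl, the log2 fold change was -2.0 with an SE of 0.24, the unadjusted edgeR p was 0.000151 and the adjusted p was 0.134. DESeq2 gave Bmf an adjusted p of 1.11e-10 and did call it. Of the DESeq2 calls of genes in simulated data, 41.2% were false. With any 1 library left out the log2 fold change of Bmf stayed between -2.14 and -1.85. On the per-length scale Bmf was at 1.35 to 5.59, with a mean of 3.14, below the mean of each of the 10 genes.

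Bnip3, a gene of mitophagy that responds to low oxygen, had a log2 fold change of 3.07 with an SE of 1.57 (adjusted p = 0.816, edgeR). Its CPM was 0.985, 0.723 and 5.44 in Ctrl and 0.536, 50.3 and 9.23 in Ti, and Ti replicate 2 stood far above the rest. The estimate was 1.04 to 4.54 with 1 library left out, the lowest coming from leaving out Ti replicate 2. It was 4.89 when both libraries numbered 3 were left out. Bcl2l2, which encodes the pro-survival protein BCL-W, had 9.60, 11.8 and 15.2 CPM in Ctrl and 10.1, 9.35 and 6.32 CPM in Ti, with a log2 fold change of -0.50 and an SE of 0.26 (adjusted p = 0.816, edgeR). The value for Bcl2l2 was -0.31 without Ctrl replicate 3, -0.32 without Ti replicate 3 and -0.13 without both. The BH3-only gene Bad (12.2 to 19.6 CPM) and Pmaip1, which encodes NOXA (27.9 to 49.3 CPM), had overlapping groups. Bik, Bok and Hrk were at or below 0.0624 CPM in every library and Bcl2l14 and Bcl2a1c were listed at 0. A count of 3, the lowest taken as detected, corresponds to 0.0498 to 0.0796 CPM in these libraries.

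Downstream of the mitochondria, all 18 genes of the apoptosome, the caspases and the inhibitors of apoptosis were tested. None passed in edgeR, with 6 log2 fold changes above 0 and 12 below (median -0.13), and 1 lay under an unadjusted p of 0.05, as did 6.76% of all tested genes. That was Xiap, a direct inhibitor of initiator and executioner caspases, with 135, 168 and 170.2 CPM in Ctrl and 193, 218 and 201 CPM in Ti. The Xiap groups did not overlap, and the log2 fold change was 0.37 with an SE of 0.12 (adjusted p = 0.620, edgeR). Aifm1, a mitochondrial flavoprotein released in cell death, had 109, 104 and 96.6 CPM in Ctrl and 88.4, 90.9 and 89.1 CPM in Ti, with a log2 fold change of -0.21 and an SE of 0.091 (adjusted p = 0.758, edgeR). For Aifm1 every Ti library was below every Ctrl library.

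Of 20 genes of the outer membrane and of the regulators of BH3 proteins and MCL1, 19 were tested. None passed in edgeR, with 12 log2 fold changes above 0 and 7 below (median 0.034), and 5 lay under an unadjusted p of 0.05, 1 of them higher and 4 lower in Ti, against 6.76% of all tested genes (3.42% higher and 3.34% lower). Huwe1, the ubiquitin ligase also known as MULE that marks MCL1 for destruction, had 1043, 1021 and 903 CPM in Ctrl and 761, 678 and 789.7 CPM in Ti. The Huwe1 groups did not overlap, and the log2 fold change was -0.41 with an SE of 0.10 (adjusted p = 0.439, edgeR). Rps6ka1, the kinase RSK1 that phosphorylates BAD and BIM, had 150.3, 148 and 147 CPM in Ctrl and 124, 118 and 129.8 CPM in Ti, with a log2 fold change of -0.26 and an SE of 0.082 (adjusted p = 0.607, edgeR). Foxo4, of the FOXO factors that drive transcription of BIM and PUMA genes, had 12.6, 14.7 and 13.8 CPM in Ctrl and 9.91, 11.0 and 7.59 CPM in Ti, with a log2 fold change of -0.53 and an SE of 0.19 (adjusted p = 0.667, edgeR). In both of these genes too, every Ti library was below every Ctrl library. In the whole list 4 tested genes lay apart with Ti higher and 4 with Ti lower. Among all tested genes the shares were 6.63% and 6.71%.

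The patterns most like those of Bcl2a1b and Bax, the gene of each side with the smallest p, were sought by Pearson's r of log2(CPM + 1) over the 6 libraries among 9717 genes with a mean of at least 5 CPM. For Bcl2a1b they were Trir (r = 0.994), Cox17 (r = 0.984) and Selenok (r = 0.982). For Bax they were Prps2 (r = 0.996), E2f2 (r = 0.992) and H2afy (r = 0.990). The points share their libraries and depth and were picked as the highest of many, so these values are a description.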

How the data were processed

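Total RNA of 3 Ctrl and 3 Ti libraries was grouped by the labels. The authors deposited an estimated count for each transcript of each library. The submitters' processing notes name HISAT2, StringTie and the build mm9, with no version, and the counting step is not given in the sources used here. The values grew with genomic span, so each was multiplied by exon length over span, summed per gene and rounded. All 141862 annotated transcripts matched GENCODE vM21 (GRCm38), which gave names and coordinates. The 45489 assembled transcripts (36.9% to 51.2% of the deposited totals) have no gene, so reads of a member assigned to them are not in its sum. The rescaled totals, 37686020 to 60242937, set the counting precision, and the detection floor of 3 counts covers counting error only.

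Genes and transcripts were fitted with edgeR 4.0.16 (quasi-likelihood, TMM, filterByExpr, R 4.3.3) and p-values adjusted by Benjamini-Hochberg over the whole table at 0.05. Alternatives were DESeq2 1.42.0, limma 3.58.1 (voom), other filters and scalings, single libraries left out, both libraries numbered 3 left out (chosen after seeing the data), the Bcl2a1 copies summed and a replicate block. The scripts were tested on simulated data. Libraries of the same number deviated together (r = 0.110, 0.144 and 0.266 between groups, against -0.170 to 0.0402 for other pairs), a pairing read from the data, not the labels. No pair of libraries agreed within sampling noise. The members and lists were chosen with earlier results of these data known. In each other list the 3 tested genes with the smallest p are named, except for 1 gene that is not reported here, and for each member up to 4 transcripts with a mean of at least 1 CPM. Overlapping genes, Csf1r, Cd68 and Spi1 are named after their values were seen.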

Additional observations from a re-analysis of the deposited data

How the results depend on the processing

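None of the 10 genes passed the threshold under any alternative run. The number of all genes called was 4, and it became 292 with DESeq2, 10 with voom, 0 with the replicate block, 1 with transcripts that switched fully on or off left out, and 0 without both libraries numbered 3. With single libraries left out it ran from 1 to 13 (2 without Ctrl replicate 1, 1 without Ctrl replicate 2, 1 without Ti replicate 1, 11 without Ti replicate 2 and 13 without Ti replicate 3). Member transcripts called were 0, and 1 with DESeq2. The cause of these shifts was not tested. The replicate block changed no other call. With it the unadjusted edgeR p was 0.0282 for Mcl1, 0.0365 for Bcl2a1b and 0.0458 for Bax, which was lower in Ti. With single libraries left out that p was 0.0501 to 0.166 for Mcl1, 0.0136 to 0.0426 for Bcl2a1b and 0.0482 to 0.336 for Bax. For Mcl1 it was 0.0668 with no low-count filter and 0.0710 unrescaled.

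The signs of Mcl1, Bcl2a1b, Bcl2l1, Bcl2, Bax and Bbc3 were the same under all alternatives run. With single libraries left out the log2 fold change was 0.162 to 0.215 for Mcl1, 0.48 to 0.694 for Bcl2a1b, 0.144 to 0.504 for Bcl2l1, -0.364 to -0.0689 for Bcl2, -0.291 to -0.141 for Bax and -0.635 to -0.114 for Bbc3. Log2 fold changes that turned sign were those of Bcl2a1d (-0.114 with voom, -0.18 with the replicate block, -0.391 to 0.465 with single libraries left out), Bcl2l11 (-0.0206 with the block, -0.0336 unrescaled, -0.162 without both libraries numbered 3, -0.488 to 0.483), Bid (0.00735 with voom, -1.31 to 1.18) and Bak1 (-0.0332 to 0.113). Among transcripts they were those of Bcl2a1d-201 (-0.00205 with no filter, -0.201 with the block, -0.413 to 0.439) and Bcl2l11-203 (0.191 with the block, -0.943 to 0.525). With single libraries left out they were also Bcl2l1-202 (-0.14 to 0.364), Bcl2l11-205 (-0.187 to 1.56), Bcl2l11-208 (-0.0644 to 0.483), Bak1-202 (-0.454 to 0.798), Bak1-204 (-0.982 to 0.202), Bid-201 (-1.37 to 1.19), Bid-205 (-0.321 to 0.0375) and Bbc3-201 (-0.67 to 0.0473). The log2 ratio difference was 0.287 to 0.421 with single libraries left out.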
